A study of Mus musculus with 6 samples.

Results

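The Hox genes code for homeodomain transcription factors and lie in 4 clusters, Hoxa on chromosome 6, Hoxb on chromosome 11, Hoxc on chromosome 15 and Hoxd on chromosome 2 of the mouse genome. The members described here are the protein-coding rows of the deposited count table whose symbol is Hoxa, Hoxb, Hoxc or Hoxd followed by a paralogue number. There were 40 such rows among 54532 rows in all, of which 22046 were protein-coding. The 40 rows carry 39 symbols, since Hoxd4 stands in 2 rows. They were 11 in cluster A, 10 in cluster B, 9 in cluster C and 10 in cluster D.

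The libraries were made from the epidermis of newborn mice, 3 from animals labelled Paxbp1 knockout and 3 from animals labelled wild type. The heads, tails and limbs had been taken off before the skin was dissected, so the tissue was that of the trunk, and fat and dermis were taken off, the last of the dermis after a night in Dispase II. Paxbp1 codes for a nuclear protein known to bind Pax3 and Pax7 in muscle progenitors. The allele, the strain, any Cre driver, and whether a library is 1 animal or a pool, are not stated in the sources used here. The p-values therefore cover the spread among 3 libraries a group, which may be technical.

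Hox proteins give cells their position along the body axis. Genes with low paralogue numbers lie at the 3′ end of each cluster and are expressed further forward, and genes with high numbers lie at the 5′ end and mark the hind part of the trunk, the tail and the ends of the limbs. In skin, dermal fibroblasts are known to keep a Hox code of their body region into adult life, and Hoxc13 is the member with a known role in the hair and nail matrix. The series was made to ask how loss of Paxbp1 affects the epidermis.

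Paxbp1 itself had 2370, 1127 and 1125 counts in the libraries labelled knockout, against 2007, 1159 and 1467 counts in the wild-type libraries. The groups overlapped, and the log2 fold change was 0.10 ± 0.29 (SE) with an adjusted p of 0.783, so the label is not seen in the gene's own RNA level, and every direction below rests on the labels. Which part of the gene was deleted is not stated, and a count over the whole gene does not test a small deletion. The libraries numbered 1 stood apart from the other 4, with 24380 genes with a count in the library labelled knockout and 24236 in the wild-type library, against 22059 to 22556 in the others. Without these 2 libraries 18 Hox genes were lower and 3 higher. Totals ran from 16315317 to 17816327 counts.

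Markers of keratinocytes and of other cell types moved with the label. All 7 basal keratinocyte markers (Krt5, Krt14 and others) were lower in the libraries labelled knockout, with a summed level of 1885 to 4886 CPM there, against 19233 to 21269 CPM in the wild-type libraries. CPM is the count scaled to the size of the library with edgeR's TMM factors. All 7 suprabasal markers were lower too, with 3150 to 7942 CPM in the libraries labelled knockout and 68069 to 122890 CPM in wild type. All 10 fibroblast markers were higher, at 7032 to 15101 CPM in the libraries labelled knockout against 406 to 454 CPM in wild type, and so were all 8 macrophage markers, at 9282 to 17628 CPM in the libraries labelled knockout against 131 to 147 CPM in wild type. Of the neutrophil markers 5 of 5 tested were higher (3257 to 8144 CPM in those labelled knockout, against 1.80 to 2.67 CPM in wild type), with Retnlg and Ly6g at 0 counts in every wild-type library. Of the endothelial markers 3 of 3 tested were higher (181 to 352 CPM in those labelled knockout, against 0.954 to 2.83 CPM in wild type). Through the libraries labelled knockout only, 4 of these 5 neutrophil and 2 of these 3 endothelial markers passed the expression filter. So did 4 of the 10 fibroblast markers and 1 of the 8 macrophage markers. For those markers a higher value was partly built into their being tested. Among the 16471 genes, the share called higher was 28.7% and the share called lower 25.1%. In bulk tissue, fewer cells of a type and less RNA per cell cannot be told apart, and the part of this shift in the Hox results was not tested.

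In the libraries labelled knockout, the tested Hox genes with paralogue numbers from 1 to 8 were lower, except for Hoxd8, which was not called, and those with numbers 9 and 10 were higher or not called. Of the 40 rows 26 passed the expression filter and were tested. Of these, 19 were lower and 4 higher in the libraries labelled knockout at a Benjamini-Hochberg adjusted p under 0.05, while over all 16471 genes tested 25.1% were lower and 28.7% higher. The 19 lower genes each had all 3 libraries labelled knockout below all 3 wild-type libraries, and the 4 higher genes had them above, which held for 30.4% and 31.9% of all genes tested. The median log2 fold change of the 26 was -2.74, where that of all genes tested was -0.03. Of the 26 genes, 11 passed the filter through the wild-type libraries only and 2, Hoxa10 and Hoxc10, through the libraries labelled knockout only, so that a difference was partly built into their passing. The other 13 reached the filter's level in both groups, and of these 8 were lower, 2 higher and 3 not called. Their median log2 fold change was -1.23. No called Hox gene changed sign in any of 19 alternatives to the processing, the 3 other scalings included.

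**Figure D1:**
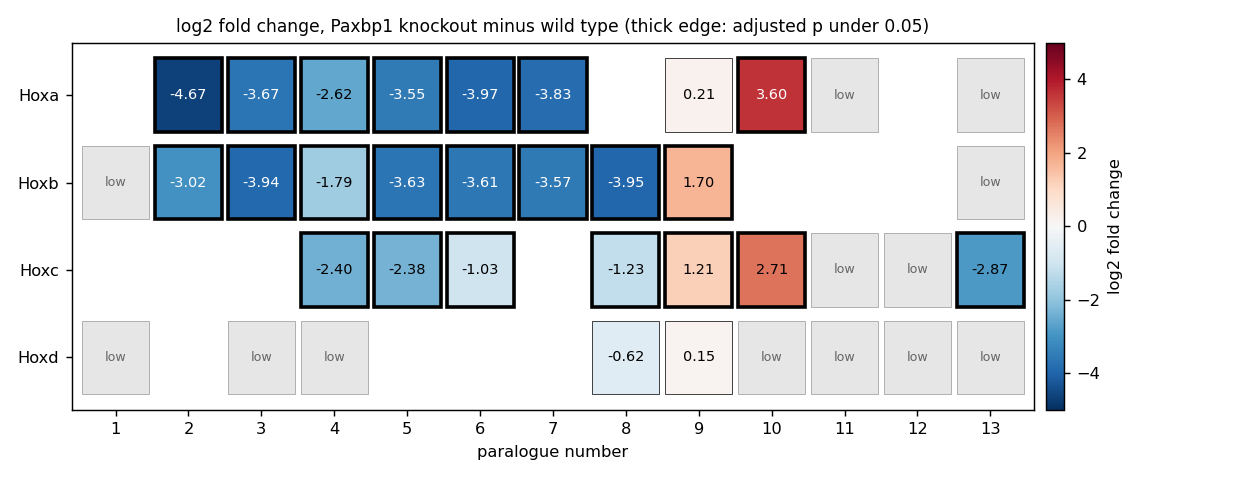
Log2 fold change (libraries labelled Paxbp1 knockout minus wild type, 3 against 3) of the Hox genes by cluster (rows) and paralogue number (columns). Blue is lower and red is higher in the libraries labelled knockout, a thick edge marks an adjusted p under 0.05, and grey fields marked low did not pass the expression filter. Every tested field with a number from 1 to 8 is blue, though Hoxd8 was not called, and the red fields with a thick edge stand at 9 and 10.

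By paralogue number, 19 genes with numbers 1 to 8 were tested, 18 of them lower and none higher, the exception being Hoxd8, which was not called. Among numbers 9 and 10, 6 genes were tested, 4 of them higher and none lower, with Hoxa9 and Hoxd9 not called. The remaining tested member, Hoxc13, was lower. Of the 6 genes, 2 (Hoxa10 and Hoxc10) passed the filter through the libraries labelled knockout only. Of the 19 with low numbers, 10 passed it through the wild-type libraries only. Hoxc9 kept its call in 10 of 19 alternatives and Hoxc10 in 16 of 18. The summed level of all 24 rows numbered 1 to 8 was 53.4, 53.7 and 39.7 CPM in the libraries labelled knockout, against 317, 231 and 259 CPM in the wild-type libraries, a mean 5.50-fold lower. The 7 rows numbered 9 and 10 summed to 40.7, 29.2 and 22.1 CPM in the libraries labelled knockout and to 15.3, 11.6 and 15.7 CPM in wild type, a mean 2.16-fold higher. Neither pair of groups overlapped. Of the sum for numbers 9 and 10, Hoxb9 alone made up 19.9, 11.4 and 9.15 CPM in the libraries labelled knockout. In wild type it made up 4.79, 2.87 and 4.82 CPM. In the libraries labelled knockout the marker sums were a mean 5.34-fold lower for basal and 13.9-fold lower for suprabasal keratinocytes. They were 1.85-fold lower for hair follicle epithelium and 27.7-fold higher for fibroblasts. No relation of the Hox sums to any of these was tested. As a share of all Hox counts, numbers 9 to 13 took 46.8% (95% Wilson interval 44.5 to 49.1), 36.2% (33.6 to 38.8) and 37.1% (34.2 to 40.1) in the libraries labelled knockout. In the wild-type libraries they took 8.27% (7.62 to 8.98), 8.96% (8.13 to 9.87) and 9.65% (8.89 to 10.5). The summed level of these 16 rows was 47.0, 30.4 and 23.4 CPM in the libraries labelled knockout and 28.6, 22.8 and 27.7 CPM in wild type, a mean 1.28-fold higher with groups that overlapped, beside the lower level of numbers 1 to 8 given above. Such intervals, and the floors and ratios of low counts given further on, cover counting error only.

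**Figure D2:**
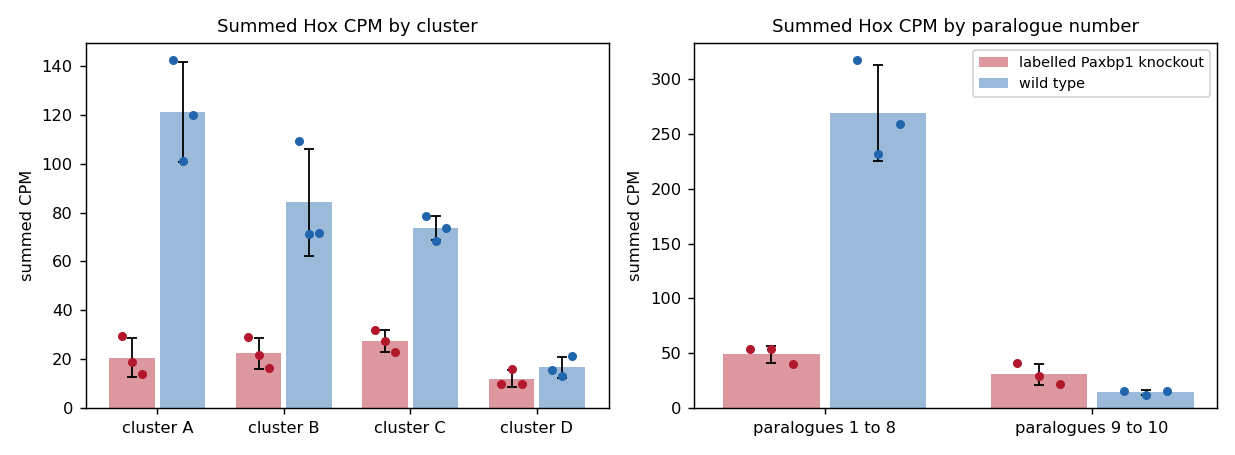
Summed CPM of the Hox genes by cluster (left) and by paralogue number (right). Points are libraries, bars are means and error bars are SD over 3 libraries, with the libraries labelled Paxbp1 knockout left of wild type. The sums of clusters A, B and C and of numbers 1 to 8 lie lower in the libraries labelled knockout, and that of numbers 9 to 10 lies higher.

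Cluster A held the most Hox counts in wild type and 7 of its 9 tested genes were lower, with 1 higher and 1 not called. Its summed level was 29.3, 18.8 and 13.7 CPM in the libraries labelled knockout, against 142, 101 and 120 CPM in wild type. Hoxa2, the selector gene of the second branchial arch, had 1.07, 0.131 and 0.186 CPM in the libraries labelled knockout against 11.5, 12.5 and 12.9 CPM in wild type. This was the lowest fold change of any tested Hox gene, at -4.67 ± 0.58 (adjusted p = 5.36e-05), a 25.4-fold lower level. The library labelled knockout numbered 1 held the most counts of its group, and it still lay below every wild-type library.

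Hoxa3, needed for the thymus and parathyroid, showed 1.41, 0.261 and 0.618 CPM in the libraries labelled knockout and 11.97, 8.24 and 9.70 CPM in wild type (-3.67 ± 0.50, adjusted p = 0.000107). Its row spans those of Hoxa4, Hoxa5 and Hoxa6, so reads of these genes can be shared, and the antisense transcript Hoxaas3 lies over part of the same stretch. Hoxa4, a gene of the cervical vertebrae, was lower by 2.62 ± 0.41 on the log2 scale (adjusted p = 0.000284). It had 1.47, 1.24 and 0.557 CPM in the libraries labelled knockout, against 6.59, 6.78 and 6.84 CPM in wild type, where the spread was small (SD 0.130 CPM, n = 3). Hoxa5, which acts in lung and in the cervical to thoracic transition of the spine, had 2.88, 1.89 and 1.36 CPM in the libraries labelled knockout, against 34.6, 17.9 and 19.8 CPM in wild type. That is a 11.7-fold lower level (log2 -3.55 ± 0.37, adjusted p = 1.69e-05).

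Hoxa6 was scarce and spread widely in wild type, with 0.339, 0.0653 and 0.124 CPM in the libraries labelled knockout and 5.23, 1.04 and 2.49 CPM in wild type (log2 -3.97 ± 0.78, adjusted p = 0.00137). Hoxa7, a trunk gene, had the highest level per length of all Hox genes in wild type. It stood at 5.48, 2.94 and 1.86 CPM in the libraries labelled knockout, against 58.1, 39.4 and 49.9 CPM in wild type. The log2 fold change was -3.83 ± 0.37 with an adjusted p of 9.62e-06, the smallest of the cluster, and the library labelled knockout with the most Hoxa7 held less than any wild-type library.

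The next gene along the chromosome was not called, and the one after it was higher. Hoxa9, a gene of the thoracic to lumbar trunk that is also active in blood stem cells, had 10.5, 7.90 and 5.88 CPM in the libraries labelled knockout and 7.51, 5.80 and 7.74 CPM in wild type. These groups overlapped, and the log2 fold change of 0.21 ± 0.30 did not pass the test (adjusted p = 0.588). Hoxa10, which marks the lumbar region and is known for its role in the uterus, had 70, 62 and 37 counts in the libraries labelled knockout against 10, 1 and 4 in wild type, or 3.95, 4.05 and 2.29 CPM in those labelled knockout against 0.544, 0.0610 and 0.212 CPM in wild type. It was 12.1-fold higher (log2 3.60 ± 0.64, adjusted p = 0.000709), and most of the wild-type counts came from the library numbered 1. Its row overlaps no other row of the table.

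The stretch upstream of Hoxa10 is shown because it is the higher gene of this cluster. It runs from 250 bases before to 50 after the annotated start (RefSeq, GRCm38.p6, chr6:52240805-52241104, minus strand), and holds no match to any of 4 motifs searched on both strands, TATAAA (the TATA box), TGATTNAT (a Hox with Pbx composite), TAATTA (a homeodomain core) and AGGTCA (a core element of retinoid receptors).
Hoxa10: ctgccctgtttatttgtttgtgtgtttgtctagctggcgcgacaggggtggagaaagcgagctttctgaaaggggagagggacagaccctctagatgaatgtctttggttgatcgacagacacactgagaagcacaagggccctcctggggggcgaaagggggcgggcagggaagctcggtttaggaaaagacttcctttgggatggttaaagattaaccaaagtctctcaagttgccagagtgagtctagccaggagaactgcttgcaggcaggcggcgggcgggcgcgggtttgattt
A second annotated start of Hoxa10 has 1 TATAAA match in the same window.

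In cluster B 7 of 8 tested genes were lower and 1 was higher. The summed level was 29.1, 21.8 and 16.5 CPM in the libraries labelled knockout, against 109, 71.3 and 71.8 CPM in wild type. Hoxb2, a hindbrain gene, had 1.19, 0.392 and 0.495 CPM in the libraries labelled knockout and 5.72, 5.07 and 6.36 CPM in wild type (log2 -3.02 ± 0.47, adjusted p = 0.000282). Hoxb3 was close to the floor of detection in the libraries labelled knockout, with 8, 2 and 6 counts there and 131, 53 and 89 counts in wild type (log2 -3.94 ± 0.55, adjusted p = 0.000125). Both rows overlap the antisense transcript Hoxb3os. Hoxb4, known for expanding blood stem cells, had the smallest fold change among the lower genes of the cluster and overlaps no other row. It had 3.16, 4.11 and 3.59 CPM in the libraries labelled knockout, against 15.6, 11.4 and 10.7 CPM in wild type, a 3.46-fold lower level (log2 -1.79 ± 0.28, adjusted p = 0.000323).

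Hoxb5, a gene of the enteric nervous system, had 0.508, 0.587 and 0.309 CPM in the libraries labelled knockout and 9.53, 4.58 and 3.55 CPM in wild type, where the library numbered 1 was the highest (log2 -3.63 ± 0.53, adjusted p = 0.000167). Hoxb6 showed the same high wild-type library, with 2.43, 1.37 and 0.433 CPM in the libraries labelled knockout and 27.6, 13.2 and 11.4 CPM in wild type (log2 -3.61 ± 0.55, adjusted p = 0.000227). For both genes the lowest wild-type library was still above each library labelled knockout. Hoxb7, a trunk and limb bud gene, was lowest in the library numbered 1 among those labelled knockout, at 0.395, 2.41 and 0.928 CPM against 17.7, 15.5 and 10.8 CPM in wild type (log2 -3.57 ± 0.52, adjusted p = 0.000183).

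Hoxb8, which acts in the spinal cord and in myeloid progenitors and microglia, gave the smallest adjusted p of all Hox genes. Its level was 1.07, 1.37 and 1.18 CPM in the libraries labelled knockout, with counts of 19, 21 and 19, against 21.4, 15.4 and 19.2 CPM in wild type, with counts of 393, 253 and 363. The libraries labelled knockout were nearly alike, and the level was 15.4-fold lower (log2 -3.95 ± 0.29, adjusted p = 1.35e-06). Hoxb9 lies next to it on the chromosome, marks the lower thorax, and was higher. It had 353, 175 and 148 counts in the libraries labelled knockout, against 88, 47 and 91 in wild type, or 19.9, 11.4 and 9.15 CPM in those labelled knockout against 4.79, 2.87 and 4.82 CPM in wild type. The level was 3.24-fold higher (log2 1.70 ± 0.36, adjusted p = 0.00214), with no overlap between groups. Neither gene's row overlaps any other row of the table, and these neighbours had opposite signs.

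The Hoxb8 promoter is shown as that of the lower gene with the smallest adjusted p (RefSeq, GRCm38.p6, chr11:96281655-96281954, plus strand). The capitals mark 2 matches to TATAAA, both read on the opposite strand as TTTATA, that begin at bases 52 and 141 of the sequence, or 199 and 110 bases before the start. No other of the 4 motifs was matched.
Hoxb8: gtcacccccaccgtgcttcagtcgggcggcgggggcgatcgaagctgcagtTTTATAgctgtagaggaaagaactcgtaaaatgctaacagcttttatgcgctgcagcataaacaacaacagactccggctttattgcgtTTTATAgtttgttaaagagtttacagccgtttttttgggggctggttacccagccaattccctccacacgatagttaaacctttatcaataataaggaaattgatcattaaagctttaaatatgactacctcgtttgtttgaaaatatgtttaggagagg
Over all 32851 RefSeq promoters of this length 13.6% hold TATAAA, 3.2% TGATTNAT, 5.3% TAATTA and 16.3% AGGTCA. Of 24 promoters of 22 Hox symbols, 4, 2, 2 and 7 held these motifs in the same order. The matches are letters in a window and show no binding.

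Cluster C differed less than clusters A and B, with 5 of 7 tested genes lower, 2 higher and a median log2 fold change of -1.23, against -3.55 in cluster A and -3.59 in cluster B. The sets are unlike, as 5 of 9 tested genes in A, 5 of 8 in B and 1 of 7 in C passed the filter through wild type only. For numbers 1 to 8 the medians were -3.67 in A, -3.61 in B and -1.805 in C. Of these genes, 2 of 7 in A, 2 of 7 in B and 4 of 4 in C reached the filter's level in both groups. Its summed level was 32.0, 27.5 and 23.0 CPM in the libraries labelled knockout, against 78.7, 68.6 and 73.7 CPM in wild type. Hoxc4, at the 3′ end and free of overlapping rows, had 3.39, 1.96 and 3.71 CPM in the libraries labelled knockout and 15.7, 14.7 and 17.5 CPM in wild type (log2 -2.40 ± 0.30, adjusted p = 6.11e-05). Hoxc5 had 1.92, 1.30 and 0.680 CPM in the libraries labelled knockout and 7.46, 6.59 and 6.41 CPM in wild type (log2 -2.38 ± 0.41, adjusted p = 0.000574). Its row spans those of Hoxc6, Hoxc8 and Hoxc9 and overlaps part of Hoxc10, so the 5 are not fully separate measurements.

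Hoxc6 and Hoxc8, which act in the thoracic skeleton and in brachial motor neurons, had smaller fold changes than any other gene called lower. Hoxc6 had 6.95, 9.66 and 7.48 CPM in the libraries labelled knockout, against 20.3, 14.9 and 13.99 CPM in wild type (log2 -1.03 ± 0.26, adjusted p = 0.00606). Without both libraries numbered 1 its log2 fold change was -0.77 with an adjusted p of 0.0509. Hoxc8 had 10.6, 9.59 and 6.74 CPM in the libraries labelled knockout, against 20.5, 20.02 and 22.8 CPM in wild type (log2 -1.23 ± 0.24, adjusted p = 0.00140). It was called lower in every alternative run.

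Hoxc9, a gene of the thoracic motor column, had 54, 43 and 31 counts in the libraries labelled knockout and 17, 19 and 24 in wild type, or 3.05, 2.81 and 1.92 CPM in those labelled knockout against 0.925, 1.16 and 1.27 CPM in wild type. The groups did not overlap, and the log2 fold change of 1.21 ± 0.43 passed the test narrowly (adjusted p = 0.0343). That call was lost in 9 of 19 alternatives, among them leaving out the library labelled knockout numbered 1 or 2 (adjusted p = 0.0774 and 0.0832) or any of the 3 wild-type libraries (0.106, 0.0898 and 0.0712). Without both libraries numbered 1 its log2 fold change was 0.94 with an adjusted p of 0.151. Hoxc10, a lumbar gene, had 27, 17 and 30 counts in the libraries labelled knockout and 10, 1 and 1 in wild type (log2 2.71 ± 0.77, adjusted p = 0.0119). Its call was lost without the wild-type library numbered 2 (adjusted p = 0.0512) or 3 (0.0541). In those 2 cases 2 Hox genes remained called higher, Hoxa10 and Hoxb9.

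Hoxc13 is the exception at the 5′ end. It drives hair and nail keratin genes, and mice without it lack external hair. It had 60, 15 and 5 counts in the libraries labelled knockout, against 221, 182 and 219 in wild type, or 3.39, 0.979 and 0.309 CPM in those labelled knockout against 12.03, 11.1 and 11.6 CPM in wild type. Wild-type libraries were close together, those labelled knockout spread widely with the one numbered 1 on top, and the groups did not overlap (log2 -2.87 ± 0.60, adjusted p = 0.00204). Of 9 hair follicle epithelium markers 8 were tested and 7 were lower, with a summed level of 1517, 1841 and 783 CPM in the libraries labelled knockout, against 2837, 2307 and 2514 CPM in wild type. Through the wild-type libraries only, 5 of these 8 markers passed the filter, so a lower value was partly built in. The share of all genes tested was 25.1% lower and 28.7% higher. Of the known targets of Hoxc13 3 were tested. Krt35, a hair cuticle keratin, had 1, 0 and 0 counts in the libraries labelled knockout and 100, 15 and 11 in wild type (log2 -6.40 ± 1.30, adjusted p = 0.00163). Both Krt35 and Hoxc13 passed the filter through the wild-type libraries only, so for them too a lower value was partly built in. Foxn1, the gene of the nude mouse, had 383, 107 and 87 counts in the libraries labelled knockout and 268, 240 and 234 in wild type, was not called (-0.29 ± 0.45, adjusted p = 0.611), and was called lower without the library labelled knockout numbered 1 (log2 -1.16, adjusted p = 0.00341). Foxq1, a hair gene, was not called (-0.46 ± 0.44, adjusted p = 0.397).

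In cluster D only Hoxd8 and Hoxd9 were tested and neither was called. Hoxd8 had 6.49, 13.6 and 8.41 CPM in the libraries labelled knockout and 13.6, 11.4 and 18.9 CPM in wild type, with overlap between the groups (log2 -0.62 ± 0.32, adjusted p = 0.126). Without the library labelled knockout numbered 2, its highest, it was called lower (log2 -0.97, adjusted p = 0.0254). Hoxd9 had 1.30, 1.70 and 0.928 CPM in the libraries labelled knockout and 0.708, 1.28 and 1.54 CPM in wild type, also with overlap (log2 0.15 ± 0.50, adjusted p = 0.818). The other 8 rows of the cluster were too low to test. Its summed level was 9.996, 16.1 and 9.83 CPM in the libraries labelled knockout, against 15.5, 13.1 and 21.2 CPM in wild type, and these overlapped.

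**Figure D3:**
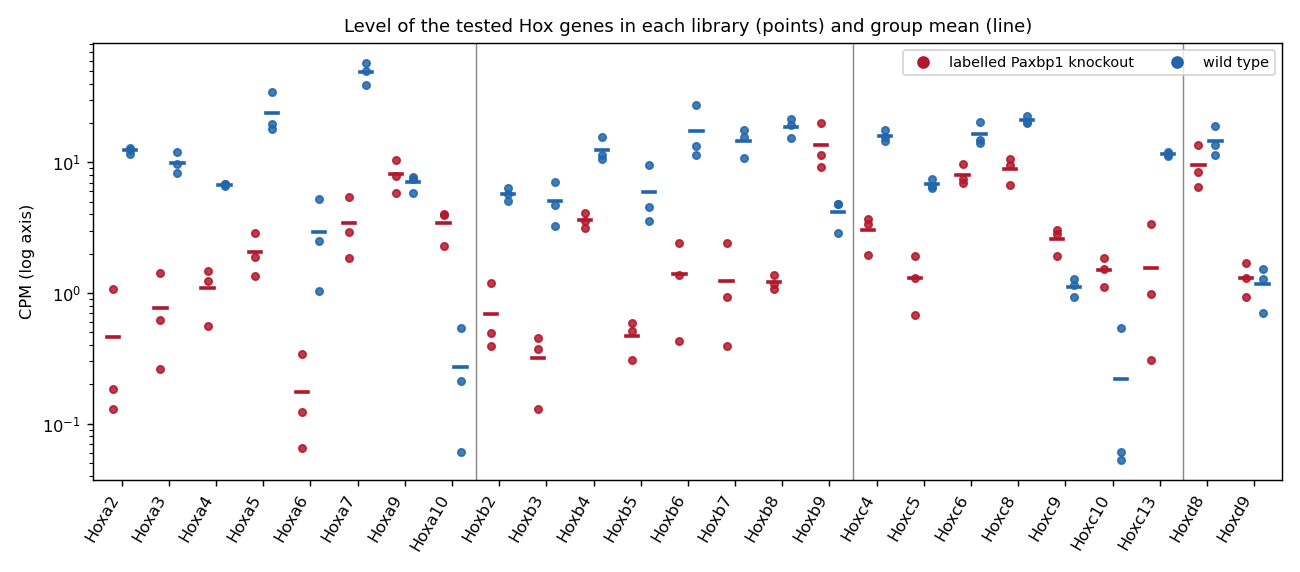
CPM (log axis) of tested Hox genes in each library (points) with the group mean (line), the libraries labelled Paxbp1 knockout left of wild type, and grey lines between clusters A, B, C and D. Points of the 2 groups overlap for Hoxa9, Hoxd8 and Hoxd9 and are apart for the other genes drawn.

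Counts of the 14 rows that were not tested were low in every library, and no call was made for them. Hoxd13, a gene of digits and genitalia, had 18, 1 and 1 counts in the libraries labelled knockout and 0 in each wild-type library. Against a floor of 3 counts over the wild-type group this is at least 7.27-fold higher, and 18 of the 20 counts came from 1 library. Hoxa13, its cluster A paralogue, had 4, 0 and 4 counts in the libraries labelled knockout and none in wild type (at least 2.91-fold higher). Hoxa11, needed with Hoxd11 for the forearm, had 4, 0 and 3 counts in the libraries labelled knockout against none in wild type (at least 2.54-fold higher). Together with Hoxd13 these are the 5′ genes with no count in any wild-type library besides Hoxd12, which had no count in any of the 6 libraries.

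At the 3′ end of cluster D, Hoxd1 had 4, 5 and 4 counts in the libraries labelled knockout and 1, 0 and 1 in wild type, a ratio of 7.08 (95% counting interval 1.60 to 64.7). Hoxd3 had 2, 0 and 0 counts in the libraries labelled knockout and 8, 1 and 4 in wild type, a ratio of 0.168 (0.0184 to 0.741). On these few counts Hoxd1 was the higher and Hoxd3 the lower of the pair in the libraries labelled knockout. The 2 Hoxd4 rows overlap each other and Hoxd3. The larger had 3, 0 and 0 counts in the libraries labelled knockout and 6, 1 and 4 in wild type, and the other had 0 in each library labelled knockout and 2, 0 and 1 in wild type. Hoxc11 had 11, 1 and 4 counts in the libraries labelled knockout and 12, 1 and 0 in wild type, and Hoxc12 had 10, 0 and 1 in those labelled knockout and 11, 0 and 1 in wild type. For these 2 the library numbered 1 held most of the counts in both groups. Hoxd10 had 8, 3 and 1 counts in the libraries labelled knockout and 5, 6 and 2 in wild type. Hoxd11 had 4, 2 and 2 in those labelled knockout and 1, 0 and 3 in wild type, and both genes overlapped between groups. Hoxb1 and Hoxb13, the ends of cluster B, had no more than 2 counts in any library.

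Ratios between genes of 1 cluster within a library do not depend on the scaling between libraries. Hoxb9 had 18.6, 8.33 and 7.79 counts for each count of Hoxb8 in the libraries labelled knockout, against 0.224, 0.186 and 0.251 in wild type. Hoxb9 had the more counts of the pair in each library labelled knockout, and Hoxb8 in each wild-type library. For Hoxa10 over Hoxa7 the ratio was 0.722, 1.38 and 1.23 in the libraries labelled knockout and 0.00937, 0.00155 and 0.00425 in wild type. Hoxa9, itself not called, had 1.92, 2.69 and 3.17 counts per Hoxa7 count in the libraries labelled knockout, against 0.129, 0.147 and 0.155 in wild type. In every wild-type library Hoxa7 had more counts than either gene. Hoxc9 over Hoxc8 was tight in both groups, at 0.289, 0.293 and 0.284 in the libraries labelled knockout and 0.0452, 0.0579 and 0.0558 in wild type. Hoxc10 over Hoxc8 was 0.144, 0.116 and 0.275 in the libraries labelled knockout against 0.0266, 0.00305 and 0.00233 in wild type. None of these 5 ratios overlapped between groups, and each had an exact two-sided permutation p of 0.1, the smallest that 3 libraries against 3 can give. In each of the 5 but Hoxa9 over Hoxa7, the first gene was called higher and the second lower, both without overlap. Those ratios had to be apart. Hoxa9 over Hoxa7 had to be apart too, through the levels of Hoxa7. Hoxa7 was at most 5.48 CPM in the libraries labelled knockout and at least 39.4 CPM in wild type. Hoxa9 stayed between 5.80 and 10.5 CPM in both groups. The p of these 5 ratios therefore adds nothing to the calls of the single genes. Hoxd9 over Hoxd8 was 0.200, 0.124 and 0.110 in the libraries labelled knockout and 0.0522, 0.113 and 0.0812 in wild type, which overlapped (exact p = 0.2). A ratio shows unequal change of the 2 genes and not which of them changed, and the shift in cell type markers was not separated from it.

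**Figure D4:**
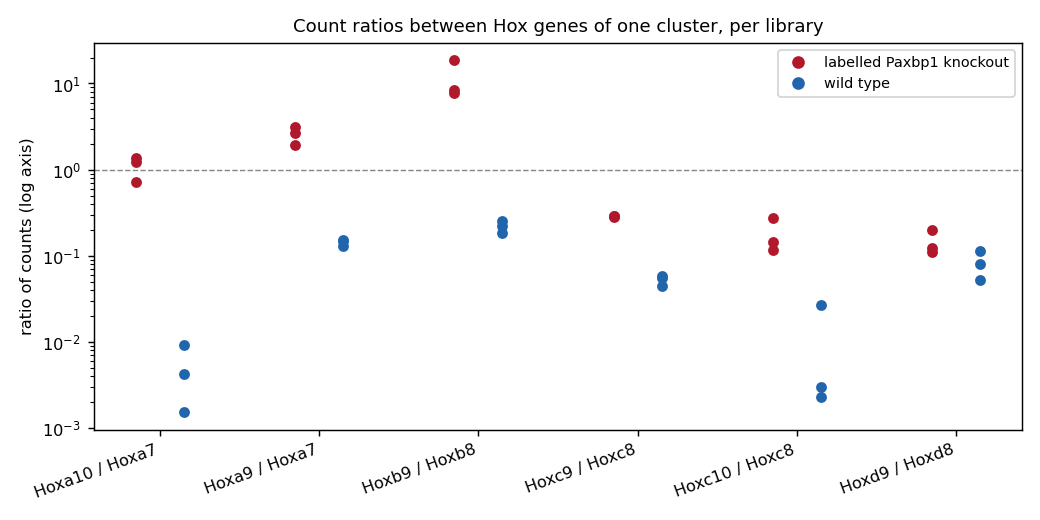
Ratio of counts between a gene with number 9 or 10 and a gene with number 7 or 8 of the same cluster, per library (log axis, the dashed line marks equal counts), with libraries labelled Paxbp1 knockout left of wild type. The groups are apart for the 5 ratios of clusters A, B and C and overlap for Hoxd9 over Hoxd8.

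Per length, in the deposited FPKM values, the order of the genes differed between groups. Among all 40 rows Hoxb9 ranked 1 in the libraries labelled knockout, at a mean of 5.22 ± 2.18 FPKM, and 20 in wild type, at 1.58 ± 0.411 FPKM (SD, n = 3 each). It was followed in the libraries labelled knockout by Hoxd8 at 3.45 ± 1.32, Hoxc6 at 3.32 ± 0.578 and Hoxc8 at 3.15 ± 0.677 FPKM. The spreads of these 3 overlap with each other and with that of Hoxb9. In the library labelled knockout numbered 2, Hoxd8 was above Hoxb9 (4.92 against 4.39 FPKM). Hoxa7 ranked 7 in the libraries labelled knockout, at 1.18 ± 0.639 FPKM, and 1 in wild type, at 16.7 ± 2.94 FPKM. Next in wild type were Hoxa5 at 12.5 ± 4.54, Hoxb7 at 9.27 ± 2.15 and Hoxb6 at 8.63 ± 4.25 FPKM, whose spreads overlap. Hoxa10 ranked 11 in the libraries labelled knockout (1.04 ± 0.294 FPKM) and 29 in wild type (0.0807 ± 0.0723 FPKM).

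The clusters also hold other transcripts, many of them antisense to Hox genes. Halr1 and Hottip, which lie beside cluster A, were listed with them. Of these 45 rows 14 were tested, and 11 were lower and none higher in the libraries labelled knockout. Over all genes tested 25.1% were lower and 28.7% higher. The median log2 fold change of the 14 was -2.54. Halr1 was among the 11 lower rows and kept its call in 14 of 18 alternatives. Of the 14, 11 passed the filter through the wild-type libraries only and 3 in both groups, so a lower value was partly built into which rows were tested, and the count and median are descriptions. Hoxb3os had 4, 5 and 2 counts in the libraries labelled knockout and 136, 73 and 91 in wild type (log2 -4.59 ± 0.51, adjusted p = 2.39e-05). Hoxaas2 had 6, 1 and 3 counts in the libraries labelled knockout against 155, 74 and 75 in wild type (log2 -4.76 ± 0.59, adjusted p = 5.67e-05). Hotairm1, a retinoic acid induced RNA of human myeloid cells, had 42, 27 and 19 counts in the libraries labelled knockout against 204, 146 and 155 in wild type (log2 -2.40 ± 0.35, adjusted p = 0.000179). The strand setting of the counting is not given in the sources used here, so reads of these RNAs and of the Hox genes opposite them cannot be told apart. Of 3 other coding rows inside the clusters 1 was tested, 5730596B20Rik, within cluster A and opposite Hoxa3, and it was lower (2, 3 and 0 counts in the libraries labelled knockout against 76, 15 and 48 in wild type).

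Outside the clusters, 20 of 24 flanking protein-coding genes were tested, with 4 higher, 8 lower and a median log2 fold change of -0.36, where 28.7% of all genes tested were higher and 25.1% lower. Without the wild-type library numbered 3 the lower genes were 5, and without both libraries numbered 1 they were 6, with 3 higher. The flanking genes are not all direct neighbours of a cluster. Snx10, a sorting nexin gene, was higher, with 722, 1121 and 1167 counts in the libraries labelled knockout and 53, 51 and 51 in wild type (log2 4.42 ± 0.29, adjusted p = 6.56e-07). It ends at base 51590679 of chromosome 6, with Skap2 between it and cluster A, which begins at 52155590. Nfe2l2, which codes for the oxidative stress factor Nrf2, was higher (log2 1.39 ± 0.21, adjusted p = 0.000225). It begins at base 75675513 of chromosome 2, with Mtx2 and Hnrnpa3 between it and cluster D, which ends at 74765142. Calcoco1, near cluster C, was lower, with 617, 529 and 757 counts in the libraries labelled knockout against 2993, 2529 and 2717 in wild type (log2 -1.99 ± 0.21, adjusted p = 1.96e-05).

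The clusters code for the microRNAs of the miR-196 and miR-10 families, which are shown because their 7-base seeds (bases 2 to 8, in capitals) match sites in Hox 3′ UTRs. The sequences are those of RefSeq (GRCm38.p6).
miR-196a-5p: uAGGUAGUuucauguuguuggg
miR-196b-5p: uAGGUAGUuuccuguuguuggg
miR-10a-5p: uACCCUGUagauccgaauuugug
miR-10b-5p: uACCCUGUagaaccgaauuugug
Within a family the members share a seed. Long-RNA libraries do not measure mature microRNAs. Of the host rows, Mir196a-1 in cluster B was the only one tested, with 16, 7 and 5 counts in the libraries labelled knockout and 51, 11 and 21 in wild type (log2 -1.43 ± 0.66, adjusted p = 0.0917). It was called lower without the library labelled knockout numbered 1 (log2 -1.96, adjusted p = 0.0487).

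The complement of the miR-196 seed, ACTACCT, occurs in the 3′ UTR of the longest coding transcript of 8 of 38 Hox genes with one (GENCODE M21), where 6.2% of 20622 genes hold it. These are Hoxa4, Hoxa5, Hoxa7, Hoxa9, Hoxb1, Hoxb6, Hoxb7 and Hoxc8. Of these 7 were tested and 6 called lower, next to 19 of 26 among all tested Hox genes. Hoxa7 has 4 such sites, listed here 5′ to 3′ in transcript order with the seed match in capitals, because it was the most abundant Hox gene of wild type.
Hoxa7 site, chr6:52215401-52215422, minus strand: aggcacagccaaaatACTACCT
Hoxa7 site, chr6:52215364-52215385, minus strand: gagaggcactcccaaACTACCT
Hoxa7 site, chr6:52215232-52215253, minus strand: caaaccatgatcaatACTACCT
Hoxa7 site, chr6:52215211-52215232, minus strand: tactactagccctaaACTACCT
For miR-10 the complement ACAGGGT occurs in 4 of 38 Hox genes, among them Hoxa3, Hoxb3 and Hoxd1, and in 12.5% of all genes. Of the 4 genes 3 were tested and all 3 called lower, next to 19 of 26 among all tested Hox genes. Hoxd1 was not the case of a lower gene, since it was too low to test. It had 4, 5 and 4 counts in the libraries labelled knockout and 1, 0 and 1 in wild type. A match of letters is no evidence that a site is used.

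Hox proteins bind DNA together with TALE homeodomain cofactors of the Pbx, Meis and Pknox families. Of 9 cofactor genes 8 were tested, 2 were lower and none higher, where 25.1% of all genes tested were lower and 28.7% higher. Pbx3 had 138, 87 and 74 counts in the libraries labelled knockout and 308, 268 and 332 in wild type (log2 -1.49 ± 0.26, adjusted p = 0.000686). Pbx4 was lower with few counts, 16, 6 and 4 in the libraries labelled knockout against 21, 33 and 29 in wild type (log2 -1.57 ± 0.59, adjusted p = 0.0419). Pbx4 passed the filter through the wild-type libraries only, so a lower value was partly built in. Its call was lost with no filter and with a replicate block (adjusted p = 0.0517 with the block). It was also lost without any single library other than the library labelled knockout numbered 1 (adjusted p = 0.0607 to 0.149). Without both libraries numbered 1, 3 cofactor genes were lower, and Meis2 was then called (log2 fold change -1.48, adjusted p = 0.00271). The median log2 fold change of the 8 was -0.09, where that of the 26 Hox genes was -2.74. These sets are unlike, as 7 of the 8 cofactors reached the filter's level in both groups. The 13 Hox genes that did so had a median of -1.23.

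Trithorax and Polycomb proteins keep Hox genes on or off once their pattern is set. All 22 genes of this list were tested, 10 were lower and 1 was higher. The Polycomb chromobox gene Cbx2 had 109, 60 and 89 counts in the libraries labelled knockout and 1295, 1020 and 1269 in wild type (log2 -3.68 ± 0.24, adjusted p = 6.31e-07). Cbx7, another chromobox gene, had 179, 127 and 103 counts in the libraries labelled knockout against 771, 672 and 535 in wild type (log2 -2.17 ± 0.26, adjusted p = 4.72e-05). Eed, a subunit of the complex that methylates histone H3 at lysine 27, was higher, with 1639, 1719 and 1544 counts in the libraries labelled knockout against 772, 816 and 946 in wild type (log2 1.08 ± 0.20, adjusted p = 0.000840). Without the library labelled knockout numbered 2 the higher genes of the list were 2, and without both libraries numbered 1 the lower genes were 7. The share of all genes tested was 25.1% lower and 28.7% higher.

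Retinoic acid and the Cdx factors set Hox genes in the embryo. Of 17 genes of this list 12 were tested, 6 higher and 4 lower, beside 28.7% higher and 25.1% lower among all genes. Of the 12, 3 passed the filter through the libraries labelled knockout only and 2 through the wild-type libraries only. Aldh1a3, which makes retinoic acid, had 2045, 768 and 894 counts in the libraries labelled knockout and 3, 2 and 15 in wild type (log2 7.61 ± 0.59, adjusted p = 1.93e-06). Cyp26b1, which breaks it down, was also higher, with 1199, 1537 and 1827 counts in the libraries labelled knockout against 116, 48 and 17 in wild type (log2 4.79 ± 0.55, adjusted p = 3.15e-05). Rarg, the main retinoic acid receptor of epidermis, was lower, with 1068, 755 and 798 counts in the libraries labelled knockout against 4111, 3700 and 3933 in wild type (log2 -2.05 ± 0.21, adjusted p = 1.23e-05). No Cdx gene passed the filter.

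Other transcription factors of body position were set beside the Hox genes. Of 25 such genes 17 were tested, 10 higher and 2 lower, against shares of 28.7% and 25.1% of all genes. Of the 17, 10 passed the filter through the libraries labelled knockout only, and 2, Lmx1b among them, through the wild-type libraries only. For those genes the direction was partly built in. Twist2, a dermal factor that is also 1 of the 10 fibroblast markers, had 275, 367 and 279 counts in the libraries labelled knockout and 3, 0 and 2 in wild type (log2 7.56 ± 0.52, adjusted p = 7.92e-07). Tbx15, a factor of dorsal dermis, had 345, 564 and 573 counts in the libraries labelled knockout against 14, 6 and 2 in wild type (log2 6.19 ± 0.51, adjusted p = 2.75e-06). Lmx1b, the dorsal limb factor, was lower, with 10, 8 and 14 counts in the libraries labelled knockout against 196, 105 and 245 in wild type (log2 -3.93 ± 0.42, adjusted p = 1.71e-05). Without the library labelled knockout numbered 1 the lower genes of this list were 6, and without both libraries numbered 1 they were 5.

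**Figure D5:**
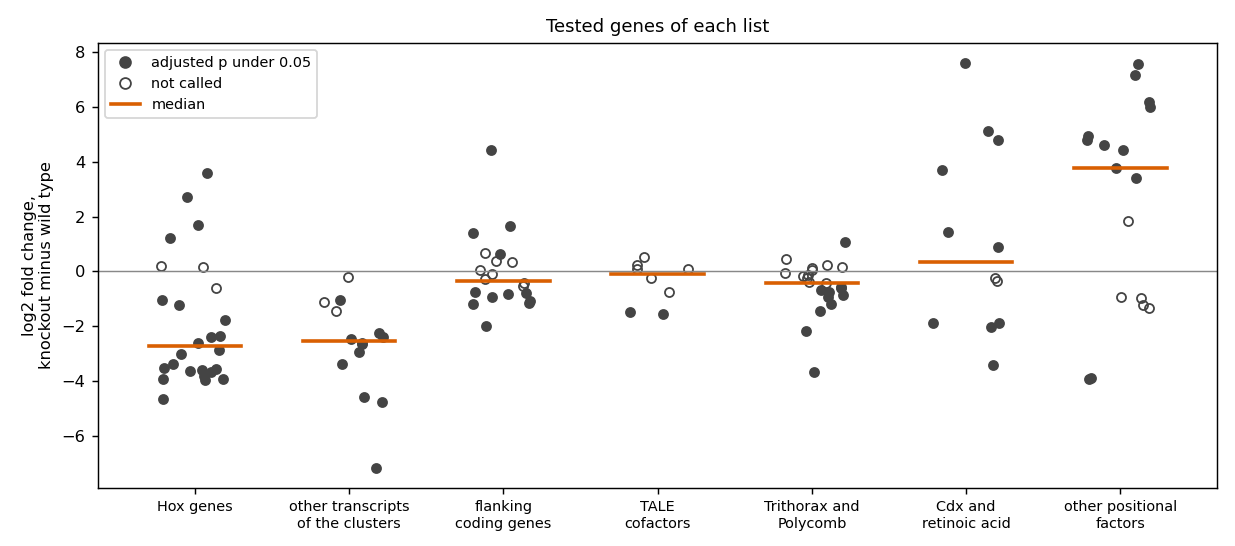
Log2 fold change (libraries labelled Paxbp1 knockout minus wild type) of the tested genes of each list, with filled points called at an adjusted p under 0.05, open points not called and an orange line at the median. The Hox genes and the other transcripts of the clusters lie mostly below 0 with medians of -2.74 and -2.54, many of them tested only because they passed the filter in wild type, the cofactors near 0, and the other positional factors mostly above 0.

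The remaining marker lists moved in both directions. Of the skeletal muscle markers 4 of 5 tested were higher, of the adipocyte markers 1 of 1, of the Langerhans cell markers 2 of 3 with 1 lower, and of the Schwann cell and nerve markers 2 of 4. Of the melanocyte markers 3 of 5 tested were lower and 1 higher, and 2 of 5 T cell and 2 of 4 Merkel cell markers were lower. Through the libraries labelled knockout only, 4 of the 5 muscle and 1 of the 4 Schwann cell and nerve markers passed the filter. Through the wild-type libraries only, 4 of the 5 T cell and 3 of the 4 Merkel cell markers passed it. For those markers the direction was partly built in. The adipocyte count is a single gene, as 3 of 4 rows were not tested. Among the 16471 genes, the share called higher was 28.7% and the share called lower 25.1%. The part of these cell types in the Hox differences was not tested.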

How the data were processed

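RNA-seq of total RNA from newborn mouse epidermis was used, with 3 libraries labelled Paxbp1 knockout and 3 libraries labelled wild type. The authors deposited whole-number counts per gene and FPKM values (fragments per length of gene and size of library), both for the same rows. HISAT2 2.0.5, featureCounts 1.5.0-p3 and the build mm10 were used, per the submitters' processing notes. The strand setting, other parameters and the gene annotation used are not stated in the sources used here. Coordinates are those of mm10, 1-based.

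The deposited counts were tested with edgeR 4.0.16 in R 4.3.3, by robust quasi-likelihood fits on genotype alone, after TMM scaling and filterByExpr at a minimum count of 10 and a minimum total of 15. This left 16471 genes, holding at least 99.7% of each library's counts, and a gene was called where its p, adjusted by Benjamini-Hochberg across them, was under 0.05. The SE is the absolute log2 fold change over the root of the F statistic. The procedure was tested on simulated counts. FPKM values served for levels per length and for an alternative test. Overlapping and antisense rows cannot be told apart by these counts.

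The members and lists were chosen with earlier results of these data known. Hox rows with a group mean of at least 1 CPM are given by their value in every library and the others by their counts, except for 1 member that is in all counts, medians and sums but is not reported here on its own. From each other list up to 3 members with the smallest adjusted p in each direction are named, and the 3 tested members of the small list of Hoxc13 targets are all given. 5730596B20Rik and the microRNA row were named after their values were seen. Krt85 matched no row. No protein sequences were used here.

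Libraries with the same number deviated together, with correlations of their deviations from the group means of 0.293, 0.452 and 0.214, against -0.434 to 0.102 for other pairs. The numbers were therefore taken to pair the libraries in an alternative with a replicate block, although no label states what the number stands for. No 2 libraries of a group agreed within sampling noise (chi-square per degree of freedom 29.8 to 80.5). Also tried were scaling by RLE, by upper quartile or by library size alone, no filter, a filter at 1 CPM in 3 libraries, no robust estimation, DESeq2 1.42.0, limma-voom (limma 3.58.1), limma-trend on log2 FPKM with 1 or 0.1 added, protein-coding rows alone, each library left out in turn, and both libraries numbered 1 left out.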

Additional observations from a re-analysis of the deposited data

How the results depend on the processing

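Across 19 alternatives 18 to 20 Hox genes were lower and 2 to 4 higher, and 20 of the 23 called genes were called in every alternative. The exceptions were Hoxc6, Hoxc9 and Hoxc10. No called Hox gene changed sign. Leaving out 1 library at a time gave 2 to 4 Hox genes higher (4 with all libraries), 1 to 3 TALE cofactors lower (2), 1 to 2 Trithorax and Polycomb genes higher (1), 2 to 6 positional factors lower (2), 1 to 2 Hoxc13 targets lower (1) and 5 to 9 flanking genes lower (8). Without both libraries numbered 1, 5 positional factors and 2 Hoxc13 targets were lower. With no filter 5 positional factors were lower, 1 cluster transcript was higher and the median log2 fold change of the Hox genes tested was -1.81, over 39 rows. With limma-voom 5 positional factors were lower. At 1 CPM in 3 libraries 0 Hoxc13 targets were lower, since Krt35 was not tested. With protein-coding rows alone 0 cluster transcripts were lower, by construction. On log2(FPKM + 1) the Hox median was -1.23, a scale that understates changes of low genes. With the replicate block 4 Hox genes were higher and 19 lower, as without it, and 1 TALE cofactor was lower. The block also ended the call of Rarb and added calls of Gm53, Atp5g2, Mtx2 and Tbx3, and it changed no other call among the Hox genes and the lists other than the cell type markers. The cause was not tested. Upper-quartile and library-size scaling moved the median of all genes to -0.22 and -0.18, with Hox medians of -2.92 and -2.85. Genes at a few counts per library could not be tested at this depth.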

Other observations

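Some long noncoding RNAs of the clusters were too low to test. Hoxa11os, antisense to Hoxa11, had 10, 1 and 5 counts in the libraries labelled knockout and 0 in each wild-type library. Haglr, in cluster D between Hoxd3 and Hoxd1, had 8, 28 and 7 counts in the libraries labelled knockout and 3, 1 and 14 in wild type, which overlapped. Hottip, beside Hoxa13, had 0, 4 and 0 counts in the libraries labelled knockout and none in wild type. Hotair, in cluster C, had 4, 0 and 0 counts in the libraries labelled knockout and 2, 0 and 3 in wild type.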
